A study of Homo sapiens with 12 samples.

Results

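The endoplasmic reticulum (ER) folding genes described here are 10 genes of 58233 in the deposited count table: HSPA5, HSP90B1, CALR, CANX, XBP1, PDIA4, PDIA6, DNAJB9, HERPUD1 and EDEM1. They were chosen by gene name from knowledge of the unfolded protein response, and all 10 passed the filter on low counts. Their poly(A)+ transcripts were counted in OCI-LY3 and VAL, which are established human lines of a mature B-cell cancer, diffuse large B-cell lymphoma (DLBCL). Both lines were sampled untreated (0 h) and 3 h or 6 h into exposure to AZ5576, a selective CDK9 inhibitor used at 300 nM, with 2 libraries in each of the 6 groups. CDK9 acts within P-TEFb to let RNA polymerase II that has paused near a start resume elongation. The study asked which genes the inhibitor altered in DLBCL cells.

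The labels give untreated cells at 0 h as the only controls, while the series text calls them vehicle-treated, so time in culture and any vehicle are part of every change given here. All VAL libraries were run on 1 lane and all OCI-LY3 libraries on another, so line and lane cannot be told apart. The labels do not say that the libraries of a group came from separate cultures, so each p-value reflects the spread among these libraries only, which may be technical. In bulk RNA, fewer cells of a type and less RNA per cell cannot be told apart. B-cell marker genes summed to between 2438 and 3288 CPM (read counts put on a common library size after TMM, edgeR's correction for library composition) in every library. T-cell, myeloid and epithelial markers summed to at most 1.14, 5.99 and 0.0757 CPM.

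Library totals ran from 23175082 to 39715536 counts. The share of counts on mitochondrially encoded mRNAs was 1.74% to 1.95% in untreated VAL and 3.17% to 6.90% in treated VAL. It was 2.25% to 2.37% in untreated OCI-LY3 and 3.77% to 5.38% in treated OCI-LY3. The treated VAL libraries of a group stood further apart from each other than the libraries of any other group did. Their chi-square per degree of freedom over genes was 63.8 at 3 h and 52.1 at 6 h, against 1.67 in untreated VAL. The OCI-LY3 libraries at 3 h also stood apart, with 19.8 against 2.33 untreated and 2.95 at 6 h. Their mitochondrial shares were 5.24% and 3.77%. In both treated VAL groups the library numbered 1, which the labels mark as resubmitted, had the higher mitochondrial share, with 4.68% against 3.17% at 3 h and 6.90% against 5.15% at 6 h.

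The ER is the compartment in which secreted and membrane proteins, including the immunoglobulins of B cells, are folded. Its chaperones hold unfolded chains, its lectins bind chains that carry sugar trees, its disulfide isomerases rearrange cysteine bonds, and chains that do not fold are returned to the cytosol for degradation. When unfolded chains accumulate, the sensors IRE1, PERK and ATF6 start the unfolded protein response, in which the transcription factors XBP1 and ATF6 bind ER stress response elements in the promoters of chaperone genes. XBP1 is also required for B cells to become antibody-secreting plasma cells.

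The ER stress response element (ERSE) was searched for as CCAAT, then 9 bases of any kind, then CCACG, which includes a CCAAT box, on both strands of the 250 bases before each RefSeq start (GRCh38.p14). It was present before at least 1 start of 6 of the 10 genes, HSPA5, HSP90B1, CALR, CANX, PDIA6 and XBP1. Of all 27305 genes with such a window, 25 genes or 0.0916% held it. The related element ERSE-II, searched for as ATTGG, 1 base of any kind and CCACG, overlaps a CCAAT box on the other strand. It was present in HERPUD1 and in 0.0659% of all genes. The unfolded protein response element core TGACGTGG was in none of the 10 and in 0.78% of all genes. A CCAAT box alone was present in all 10 genes and in 37% of all genes. The 10 genes were chosen from knowledge of the unfolded protein response, so these shares are no test of enrichment. A match of letters is a description of these windows, not a measured binding site.

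The 250 bases before the start are shown for 4 genes, since 2 carry ERSE letters and moved in opposite directions on the TMM scale (HSPA5 and HSP90B1), 1 encodes the transcription factor itself and 1 carries ERSE-II. They lie at chr9:125241344-125241593 on the minus strand (HSPA5), chr12:103930160-103930409 on the plus strand (HSP90B1), chr22:28800570-28800819 on the minus strand (XBP1) and chr16:56931892-56932141 on the plus strand (HERPUD1). Each reads 5′ to 3′ with the start after its last base, and capitals mark the ERSE or ERSE-II letters. In HSPA5 the element spans 66 to 48 bases before the start, and HSP90B1 holds it on both strands.
HSPA5 promoter: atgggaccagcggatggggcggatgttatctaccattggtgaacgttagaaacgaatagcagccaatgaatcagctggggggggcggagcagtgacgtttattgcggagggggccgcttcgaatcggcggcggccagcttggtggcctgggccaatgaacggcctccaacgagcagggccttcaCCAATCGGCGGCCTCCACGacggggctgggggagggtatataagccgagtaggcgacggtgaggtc
HSP90B1 promoter: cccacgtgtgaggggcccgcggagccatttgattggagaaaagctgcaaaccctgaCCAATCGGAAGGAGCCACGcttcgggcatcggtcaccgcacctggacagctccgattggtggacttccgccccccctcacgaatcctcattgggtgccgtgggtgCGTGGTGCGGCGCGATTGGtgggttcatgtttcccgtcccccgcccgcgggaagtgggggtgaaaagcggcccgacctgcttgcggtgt
XBP1 promoter: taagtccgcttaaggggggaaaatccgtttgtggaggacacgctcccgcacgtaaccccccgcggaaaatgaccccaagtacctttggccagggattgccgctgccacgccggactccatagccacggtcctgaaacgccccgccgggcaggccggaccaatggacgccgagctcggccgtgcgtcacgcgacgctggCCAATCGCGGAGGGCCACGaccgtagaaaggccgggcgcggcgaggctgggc
HERPUD1 promoter: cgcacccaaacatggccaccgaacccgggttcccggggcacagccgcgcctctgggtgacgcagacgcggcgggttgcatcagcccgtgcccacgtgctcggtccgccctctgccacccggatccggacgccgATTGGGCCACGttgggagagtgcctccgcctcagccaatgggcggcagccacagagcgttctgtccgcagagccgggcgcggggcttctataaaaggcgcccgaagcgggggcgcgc

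In CALR, CANX and PDIA6 the matched letters were, in the same order, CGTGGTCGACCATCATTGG on the minus strand at 225 to 207 bases before the start, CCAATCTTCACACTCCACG at 151 to 133 bases, and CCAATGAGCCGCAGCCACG at 86 to 68 bases. CANX has 4 RefSeq starts, PDIA6 has 2 and XBP1 has 2, and the element was present before only some of them. Neither ERSE nor ERSE-II letters were found in PDIA4, DNAJB9 or EDEM1.

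The 10 genes did not move as a block. DNAJB9, HERPUD1 and XBP1 fell at 3 h in both lines, to between 4.88% and 20.8% of their untreated level. HSPA5 and CALR fell in VAL from 3 h to 6 h, to 9.76% and 16.7% of untreated. In OCI-LY3 HSPA5 fell to 36.5% at 6 h, while CALR stood at 90.7% and did not pass on the TMM scale. HSP90B1 rose in both lines on the TMM scale, reaching 185% of untreated in OCI-LY3 at 6 h, and was lower than untreated in both when counts were scaled to the mitochondrially encoded mRNAs. Values by library are shown first, then the change on the log2 scale with its standard error (SE) and the p-value of edgeR's quasi-likelihood test, adjusted by Benjamini-Hochberg over 16374 tested genes, with 0.05 as the threshold.

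**Figure D1:**
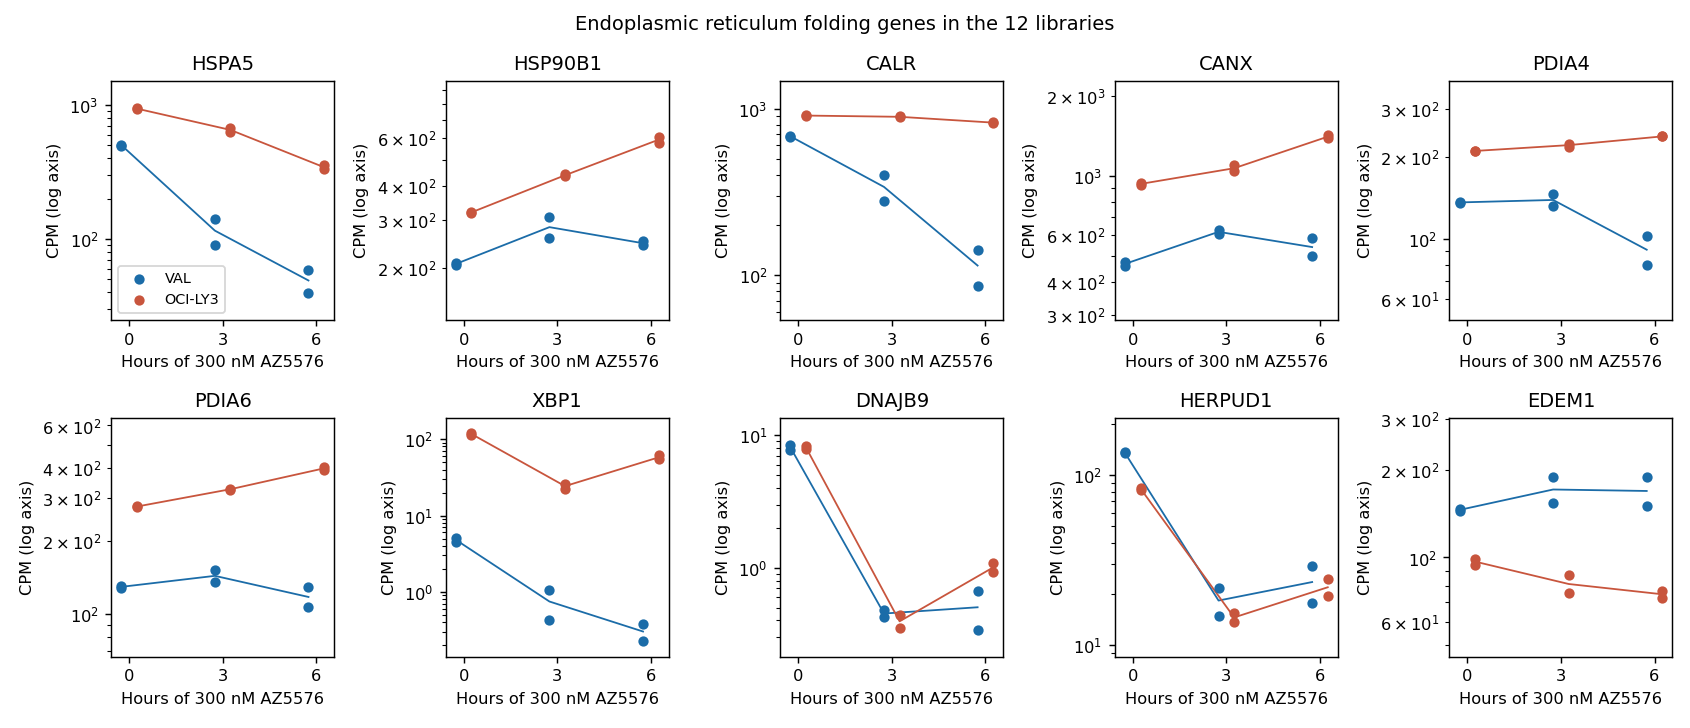
Level of each of the 10 genes in CPM on a log axis against hours of 300 nM AZ5576, with 1 point per library and lines through the mean of the 2 libraries of each group (blue VAL, red OCI-LY3; points of the lines are set slightly apart). For HSPA5 and CALR the points of OCI-LY3 lie above those of VAL already untreated, and the lines stand further apart after treatment. HSPA5 was at 506.3 and 496.5 CPM in untreated VAL against 934.1 and 942.1 CPM in OCI-LY3. At 6 h it was at 39.6 and 58.2 CPM in VAL against 353.6 and 331.5 CPM in OCI-LY3. DNAJB9 and HERPUD1 drop in both lines by 3 h.

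In untreated cells CALR stood highest of the 10 per length of exon. Its level was 251 CPM per kb in VAL and 335 CPM per kb in OCI-LY3. HSPA5 came next in both lines with 128 and 240 CPM per kb, and CANX followed with 75.0 and 150 CPM per kb. HSP90B1, PDIA4 and PDIA6 lay between 31.5 and 68.2 CPM per kb. HERPUD1 stood at 26.2 and 16.2 CPM per kb and EDEM1 at 21.6 and 14.3. DNAJB9 was low in both lines, with 2.85 CPM per kb. The order changed with treatment in both lines. In VAL at 6 h CANX was first with 86.8 CPM per kb, HSP90B1 and CALR followed with 52.6 and 42.0, and HSPA5 had dropped to rank 7 with 12.5 CPM per kb. In OCI-LY3 at 6 h CALR stayed first with 303 CPM per kb. CANX and HSP90B1 followed with 226 and 126, and HSPA5 had dropped to rank 5 with 87.7 CPM per kb.

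OCI-LY3 held more of most folding transcripts than VAL before treatment. Of the 10 genes 6 were higher and 2 lower in OCI-LY3, against 29.8% and 26.5% of all tested genes. The median difference was 0.63 (log2) over the 10 and 0.03 over all tested genes. XBP1 differed most, with 5.14 and 4.49 CPM in the untreated VAL libraries and 114.4 and 118.9 CPM in OCI-LY3. All 6 OCI-LY3 libraries, treated ones included, lay above all 6 VAL libraries. The difference at 0 h was 4.60 ± 0.223 (log2, SE; adjusted p = 2.72e-08).

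XBP1 is needed for plasma cell identity, and the plasma cell markers were mixed between the lines. The 4 markers summed to 334 to 338 CPM in untreated VAL and 513 to 562 CPM in untreated OCI-LY3, most of it JCHAIN. TNFRSF17 went the other way, with up to 49.7 CPM in VAL and at most 4.38 CPM in OCI-LY3. The defining plasma cell genes SDC1 and PRDM1 were at most 5.67 and 0.927 CPM in any library. The part of such a program in the XBP1 difference was not tested.

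PDIA6 and CANX were higher in OCI-LY3 by 1.10 ± 0.106 (adjusted p = 5.38e-06) and 1.00 ± 0.0996 (7.3e-06). HSPA5, HSP90B1 and PDIA4 were higher by 0.90, 0.63 and 0.63. HERPUD1 and EDEM1 were lower by -0.70 ± 0.218 (0.0179) and -0.59 ± 0.136 (0.00323). CALR differed by 0.41 (0.113) and DNAJB9 by -0.00 (0.993), and neither passed. Leaving out either untreated VAL library ended the call of HSPA5, with an adjusted p of 0.0528 and 0.0589, and that of PDIA4, which also ended without the untreated OCI-LY3 library numbered 2 (0.0531). Scaled to mitochondrially encoded mRNAs, 1 of the 10 genes was called higher in OCI-LY3, against 1957 of all 16374 tested genes.

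XBP1 mRNA is the substrate of IRE1, which removes a short stretch from it and so shifts the reading frame to that of the active factor. The stretch is shown because the deposited counts add both forms. In GENCODE release 29 the first listed coding transcript holds it, and 2 shorter coding transcripts lack it. Capitals mark the 26 bases, with 12 bases on either side, and the repeated letters at its ends allow 7 placements of which the first is shown.
XBP1 excised stretch: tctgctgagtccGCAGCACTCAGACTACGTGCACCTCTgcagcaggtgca
The values below are for the gene and give no share of the spliced form.

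XBP1 fell in both lines and then parted. XBP1 (ENSG00000100219) spans chr22:28794555-28800597 on the minus strand of GRCh38, by GENCODE release 29 as for the genes below. In VAL it went from 5.14 and 4.49 CPM untreated to 0.425 and 1.08 CPM at 3 h and 0.227 and 0.381 CPM at 6 h. In OCI-LY3 it went from 114.4 and 118.9 CPM to 26.2 and 22.3 CPM at 3 h and 61.2 and 54.2 CPM at 6 h. The treated libraries lay below the untreated ones without overlap in both lines, and in OCI-LY3 both 6 h libraries lay above both 3 h libraries. The change in VAL was -2.72 ± 0.284 at 3 h (adjusted p = 1.79e-05) and -4.01 ± 0.348 at 6 h (2.3e-06). In OCI-LY3 it was -2.27 ± 0.198 at 3 h (6.1e-06) and -1.02 ± 0.19 at 6 h (0.000754).

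Between 3 h and 6 h XBP1 rose in OCI-LY3 by 1.25 ± 0.194 (0.000862), and in VAL its change of -1.28 did not pass (0.0751). The comparisons with 0 h share their untreated libraries, and those between 3 h and 6 h share the treated ones. The difference between lines in the 6 h change was 2.99 ± 0.421 (0.000862). The VAL values rest on few reads, 13 and 27 counts at 3 h and 6 and 8 counts at 6 h. Without the VAL libraries numbered 1 the change in VAL was -2.06 at 3 h and -3.54 at 6 h, and without those numbered 2 it was -3.58 and -4.48.

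DNAJB9 encodes ERdj4, a co-chaperone of BiP that is induced by XBP1 and represses IRE1. DNAJB9 (ENSG00000128590) spans chr7:108569568-108574850 on the plus strand of GRCh38. It fell furthest of the 10 at 3 h in both lines. In VAL its level was 8.47 and 7.72 CPM untreated, 0.425 and 0.478 CPM at 3 h, and 0.341 and 0.666 CPM at 6 h. OCI-LY3 held 8.35 and 7.82 CPM untreated, 0.438 and 0.351 CPM at 3 h, and 1.09 and 0.923 CPM at 6 h. The untreated levels of the lines overlapped, and every treated library lay far below every untreated one.

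DNAJB9 changed by -4.16 ± 0.242 at 3 h in VAL (adjusted p = 3.19e-07) and by -4.35 ± 0.246 at 3 h in OCI-LY3 (4.37e-07). At 3 h only 0.434% of tested genes in VAL and 0.195% in OCI-LY3 had a lower change. At 6 h the change was -4.04 ± 0.246 in VAL (2.15e-07) and -3.01 ± 0.222 in OCI-LY3 (9.07e-07). From 3 h to 6 h it rose in OCI-LY3 by 1.34 ± 0.319 (0.00942), a call that ended without the 3 h library numbered 2 (0.0765) or the 6 h library numbered 1 (0.0644). The treated libraries held 9 to 22 counts of DNAJB9 each. Its exons share 99 bases with PNPLA8 and 183 bases with THAP5 on the opposite strand, and the library kit does not mark strand. These genes had 280.3% and 401.8% of its counts over all libraries, so reads in the shared bases cannot be assigned to either strand.

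HERPUD1 encodes Herp, a membrane protein of the complex that moves misfolded proteins out of the ER for degradation. HERPUD1 (ENSG00000051108) spans chr16:56932048-56944863 on the plus strand of GRCh38. In VAL it went from 135.8 and 134.1 CPM untreated to 14.9 and 21.8 CPM at 3 h and 17.8 and 29.3 CPM at 6 h. In OCI-LY3 it went from 82.3 and 84.3 CPM to 15.5 and 13.7 CPM at 3 h and 24.4 and 19.5 CPM at 6 h. The treated libraries of the lines overlapped at both times, although untreated VAL held more. HERPUD1 fell by 2.88 ± 0.236 at 3 h in VAL (adjusted p = 3.11e-06) and fell by 2.51 ± 0.235 at 3 h in OCI-LY3 (1.02e-05). At 6 h it was lower by -2.52 ± 0.233 in VAL (3.64e-06) and by -1.93 ± 0.23 in OCI-LY3 (2.99e-05). The difference between lines was not called at 3 h or at 6 h, where it was 0.60 (0.191).

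EDEM1 encodes a protein that trims or recognises mannose on misfolded glycoproteins and hands them to degradation. EDEM1 (ENSG00000134109) spans chr3:5187646-5219957 on the plus strand of GRCh38. Of the genes of this step it moved least. In VAL it was 147.2 and 144.5 CPM untreated, 189.6 and 153.6 CPM at 3 h, and 189.2 and 150.0 CPM at 6 h. Its OCI-LY3 levels were 94.4 and 99.1 CPM untreated, 75.3 and 86.7 CPM at 3 h, and 76.6 and 72.7 CPM at 6 h. Treated libraries lay above untreated ones in VAL and below them in OCI-LY3. The changes in VAL, 0.23 at 3 h (adjusted p = 0.165) and 0.22 at 6 h (0.178), did not pass, and with mitochondrial scaling they were -1.19 and -1.98.

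In OCI-LY3 EDEM1 fell at 6 h by 0.37 ± 0.137 (0.0335). Leaving out any 1 of 7 libraries ended that call, with adjusted p-values from 0.0704 to 0.227, as did DESeq2's size factors (-0.21, 0.205) and its Wald test (-0.21, 0.233). The 7 were both untreated libraries of each line, both 6 h libraries of OCI-LY3 and its 3 h library numbered 2.

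HSPA5 encodes BiP, the Hsp70 chaperone of the ER, which holds unfolded chains and keeps the sensors of the unfolded protein response inactive. HSPA5 (ENSG00000044574) spans chr9:125234853-125241330 on the minus strand of GRCh38. It fell in both lines by 6 h, further in VAL. In VAL it went from 506.3 and 496.5 CPM untreated to 90.4 and 140.1 CPM at 3 h and 39.6 and 58.2 CPM at 6 h. In OCI-LY3 it went from 934.1 and 942.1 CPM to 673.4 and 627.4 CPM at 3 h and 353.6 and 331.5 CPM at 6 h. No library of one time overlapped one of another time within a line.

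The change of HSPA5 in VAL was -2.12 ± 0.206 at 3 h (adjusted p = 1.06e-05) and -3.36 ± 0.218 at 6 h (3.17e-07). In OCI-LY3 it was -0.53 ± 0.197 at 3 h, which did not pass (0.0512), and -1.45 ± 0.201 at 6 h (8.86e-05). That 3 h fall passed with no composition factor (-0.73, 0.00325) and with no filter on low counts (-0.52, 0.00064). It also passed with the replicate block (-0.53, 0.00662) and with mitochondrial scaling (-1.66, 1.13e-06), but not with DESeq2's size factors or its Wald test. The 3 h change in OCI-LY3 passed when any of the 4 treated VAL libraries was left out (0.0100 to 0.0177). From 3 h to 6 h HSPA5 fell by 1.24 ± 0.204 in VAL (0.00148) and fell by 0.92 ± 0.199 in OCI-LY3 (0.00547), the latter not passing without the 6 h library numbered 2 (0.0537). In VAL at 6 h the change was -3.09 without the libraries numbered 1 and -3.68 without those numbered 2.

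HSP90B1 encodes GRP94, the Hsp90 chaperone of the ER, which folds integrins and Toll-like receptors. HSP90B1 (ENSG00000166598) spans chr12:103930107-103953645 on the plus strand of GRCh38. Its level in VAL was 208.2 and 206.0 CPM untreated, 307.2 and 258.3 CPM at 3 h, and 242.1 and 251.4 CPM at 6 h. OCI-LY3 held 321.9 and 318.9 CPM untreated, 441.5 and 435.9 CPM at 3 h, and 608.7 and 576.9 CPM at 6 h. Treated libraries lay above untreated ones in both lines, and OCI-LY3 climbed further at 6 h while VAL did not.

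On the TMM scale HSP90B1 rose by 0.45 ± 0.0994 at 3 h in VAL (adjusted p = 0.00298) and by 0.45 ± 0.0992 at 3 h in OCI-LY3 (0.00389), and scaled to mitochondrially encoded mRNAs it was lower by -0.98 and -0.67. At 6 h the rise was 0.25 ± 0.0993 in VAL (0.0423) and 0.89 ± 0.0997 in OCI-LY3 (1.91e-05), and with mitochondrial scaling the values were -1.93 and -0.67. With no composition factor the 6 h value in VAL was -0.24, and the 3 h rises did not pass (0.49 in VAL and 0.0946 in OCI-LY3). From 3 h to 6 h in OCI-LY3 it rose by 0.43 ± 0.0992 (0.00761), and the call ended without the 3 h library numbered 2 (0.0735) or the 6 h library numbered 1 (0.0668). In VAL the 3 h call ended without any one of the 4 untreated libraries (0.0588 to 0.143), and the 6 h call without any one of 10 libraries (0.0511 to 0.308), all but those of VAL at 3 h.

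CALR encodes calreticulin, a soluble calcium-binding lectin that retains glycoproteins until they fold. CALR (ENSG00000179218) spans chr19:12938578-12944489 on the plus strand of GRCh38. In VAL it went from 686.6 and 675.8 CPM untreated to 277.1 and 399.2 CPM at 3 h and 85.6 and 142.1 CPM at 6 h. The OCI-LY3 libraries held 900.7 and 915.1 CPM untreated, 898.9 and 886.0 CPM at 3 h, and 819.8 and 826.7 CPM at 6 h. The VAL groups were separate at each time, and the OCI-LY3 libraries at 0 h and 3 h lay within a narrow range of each other. CALR fell in VAL by 1.01 ± 0.21 at 3 h (adjusted p = 0.00206) and fell by 2.58 ± 0.221 at 6 h (2.1e-06), and between 3 h and 6 h it fell by 1.57 ± 0.214 (0.000524). In OCI-LY3 the changes of -0.02 (0.953) and -0.14 (0.583) did not pass, although the 6 h libraries lay below the untreated ones without overlap. With no composition factor the 6 h change in OCI-LY3 was -0.51 and passed (0.0192), and with mitochondrial scaling it was -1.70. In VAL at 6 h the change of CALR was -2.25 without the libraries numbered 1 and -3.00 without those numbered 2.

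CANX encodes calnexin, the membrane-bound partner of calreticulin in the same lectin cycle. CANX (ENSG00000127022) spans chr5:179678628-179730925 on the plus strand of GRCh38. In VAL it was 475.7 and 460.0 CPM untreated, 627.0 and 608.4 CPM at 3 h, and 499.5 and 583.1 CPM at 6 h. OCI-LY3 held 929.5 and 941.4 CPM untreated, 1044 and 1100.0 CPM at 3 h, and 1426 and 1392 CPM at 6 h. Every treated library lay above the untreated ones of its line, so the 2 lectins of the cycle moved apart in VAL on the TMM scale.

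CANX rose by 0.40 ± 0.0989 at 3 h in VAL (adjusted p = 0.00559) and by 0.59 ± 0.0989 at 6 h in OCI-LY3 (0.00035), while with mitochondrial scaling it was lower by -1.01 and -0.97. The changes of 0.21 at 6 h in VAL (0.0814) and 0.20 at 3 h in OCI-LY3 (0.135) did not pass, and the former was -0.28 with no composition factor. From 3 h to 6 h it rose in OCI-LY3 by 0.39 ± 0.0988 (0.0123), with -0.046 under mitochondrial scaling. The 3 h call in VAL ended without any one of the 4 untreated libraries or the OCI-LY3 3 h library numbered 2 (0.0974 to 0.264). The call between 3 h and 6 h in OCI-LY3 ended without any one of its treated libraries or of the untreated VAL libraries (0.0506 to 0.0810).

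PDIA4 and PDIA6 encode the disulfide isomerases ERp72 and P5, which form and exchange cysteine bonds and associate with BiP. PDIA4 (ENSG00000155660) spans chr7:149003062-149028641 on the minus strand of GRCh38, and PDIA6 (ENSG00000143870) spans chr2:10783391-10837977 on the minus strand of GRCh38. PDIA4 in VAL was 137.1 and 135.0 CPM untreated, 131.5 and 146.3 CPM at 3 h, and 80.1 and 101.9 CPM at 6 h. OCI-LY3 held 210.9 and 210.4 CPM untreated, 218.5 and 224.2 CPM at 3 h, and 238.3 and 238.4 CPM at 6 h. Only the VAL libraries at 6 h lay below the untreated ones of their line as a pair. PDIA4 fell in VAL at 6 h by 0.58 ± 0.115 (adjusted p = 0.00105) and fell by 0.61 ± 0.116 from 3 h to 6 h (0.00333). Its other changes with 0 h, 0.03 at 3 h in VAL (0.843), 0.07 at 3 h in OCI-LY3 (0.656) and 0.18 at 6 h in OCI-LY3 (0.198), did not pass. The last of these was 0.35 and passed with DESeq2's size factors (0.0265) and its Wald test (0.0140), and was -1.38 with mitochondrial scaling.

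PDIA6 in VAL was 130.6 and 127.8 CPM untreated, 135.9 and 151.1 CPM at 3 h, and 106.3 and 128.4 CPM at 6 h, and the 6 h libraries overlapped the untreated ones. In OCI-LY3 it was 279.1 and 275.7 CPM untreated, 328.2 and 326.1 CPM at 3 h, and 394.5 and 403.6 CPM at 6 h, with no overlap between times. PDIA6 rose in OCI-LY3 at 6 h by 0.52 ± 0.105 (adjusted p = 0.00116), but the value was -1.03 when scaled to mitochondrially encoded mRNAs. With no composition factor that rise did not pass (0.0878). The changes of 0.15 at 3 h (0.245) and -0.14 at 6 h (0.263) in VAL and 0.24 at 3 h in OCI-LY3 (0.091) did not pass.

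**Figure D2:**
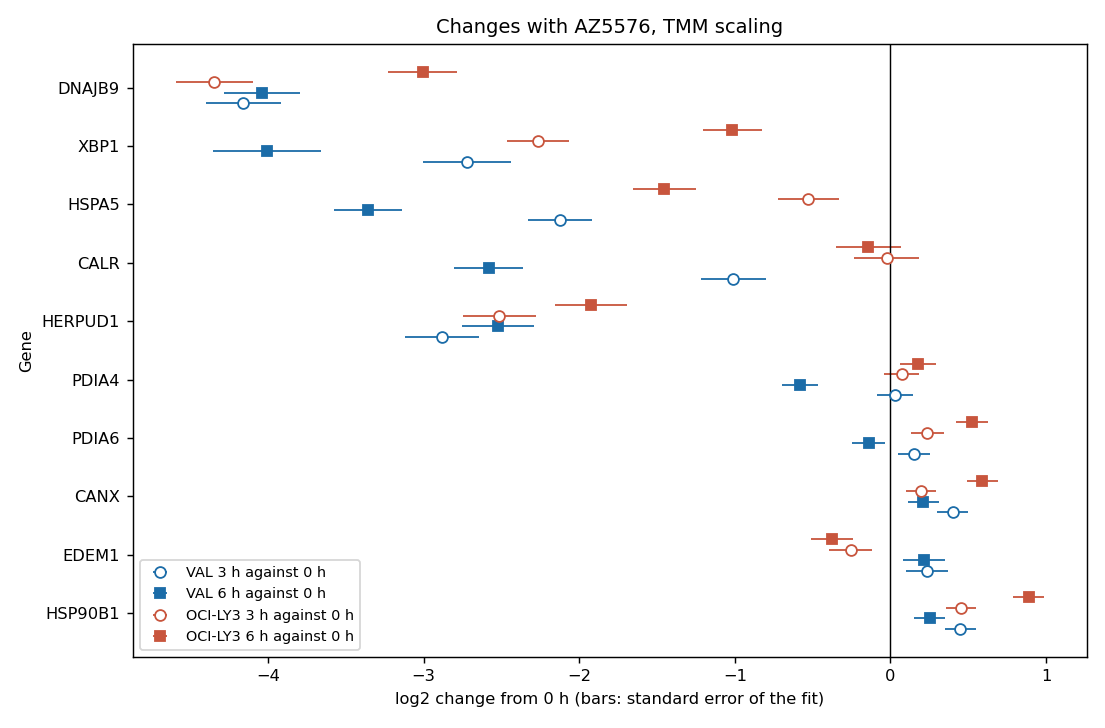
Change from untreated (log2, TMM scaling) of the 10 genes at 3 h (open circles) and 6 h (filled squares) in VAL (blue) and OCI-LY3 (red), with bars for the standard error of the fit. DNAJB9 lies between -4.35 and -3.01 in all 4 comparisons, CALR reaches -2.58 in VAL and stays at -0.14 in OCI-LY3, and HSP90B1 lies to the right of 0 in all 4, which mitochondrial scaling reverses.

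Counted together at 3 h in VAL, 2 of the 10 genes were higher and 5 lower, against 29.6% and 25.1% of all tested genes. At 6 h in VAL 1 was higher and 6 lower, against 34% and 32.2%. In OCI-LY3 1 was higher and 3 lower at 3 h, against 17.8% and 24.3%, and 3 were higher and 5 lower at 6 h, against 28.1% and 33.4%. The median change over the 10 was -0.49 at 3 h and -1.55 at 6 h in VAL, where all tested genes had medians of 0.16 and 0.10. In OCI-LY3 it was -0.14 and -0.26, with -0.00 and -0.01 over all tested genes.

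From 3 h to 6 h the fall of HSPA5 was the 1 change of the 10 genes called in both lines. In VAL none of the 10 rose and 3 fell, HSPA5, CALR and PDIA4, against 7.54% and 15.3% of all tested genes. In OCI-LY3 4 rose, HSP90B1, CANX, XBP1 and DNAJB9, and HSPA5 fell, against 12% and 16.3%. The summed level of the 10 genes was 2417 ± 34.7 CPM in untreated VAL, 1827 ± 74.8 CPM at 3 h and 1353 ± 131 CPM at 6 h (SD, n = 2 libraries). In OCI-LY3 the sum was 3895 ± 27.0 CPM untreated, 3722 ± 0.776 CPM at 3 h and 3960 ± 62.3 CPM at 6 h.

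All of these values are shares of a library, and the treated libraries held a larger share of mitochondrially encoded mRNAs. Scaled so that the 13 mitochondrially encoded mRNAs were level, all 10 genes were called lower in all 4 comparisons with 0 h. Most tested genes were too. Of all 16374, 11611 and 13516 were called lower in VAL and 10819 and 11775 in OCI-LY3, at 3 h and 6 h. That scaling moved the median of all tested genes to -1.23 and -2.06 in VAL and to -1.09 and -1.55 in OCI-LY3, at 3 h and 6 h. Among the 10 HSP90B1 stood highest under that scaling in all 4 comparisons, at -0.98 and -1.93 in VAL and -0.67 and -0.67 in OCI-LY3, each above the median of all tested genes, and DNAJB9 stood lowest. Which scaling is closer to amounts per cell was not tested, since no spike-in values were used here.

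**Figure D3:**
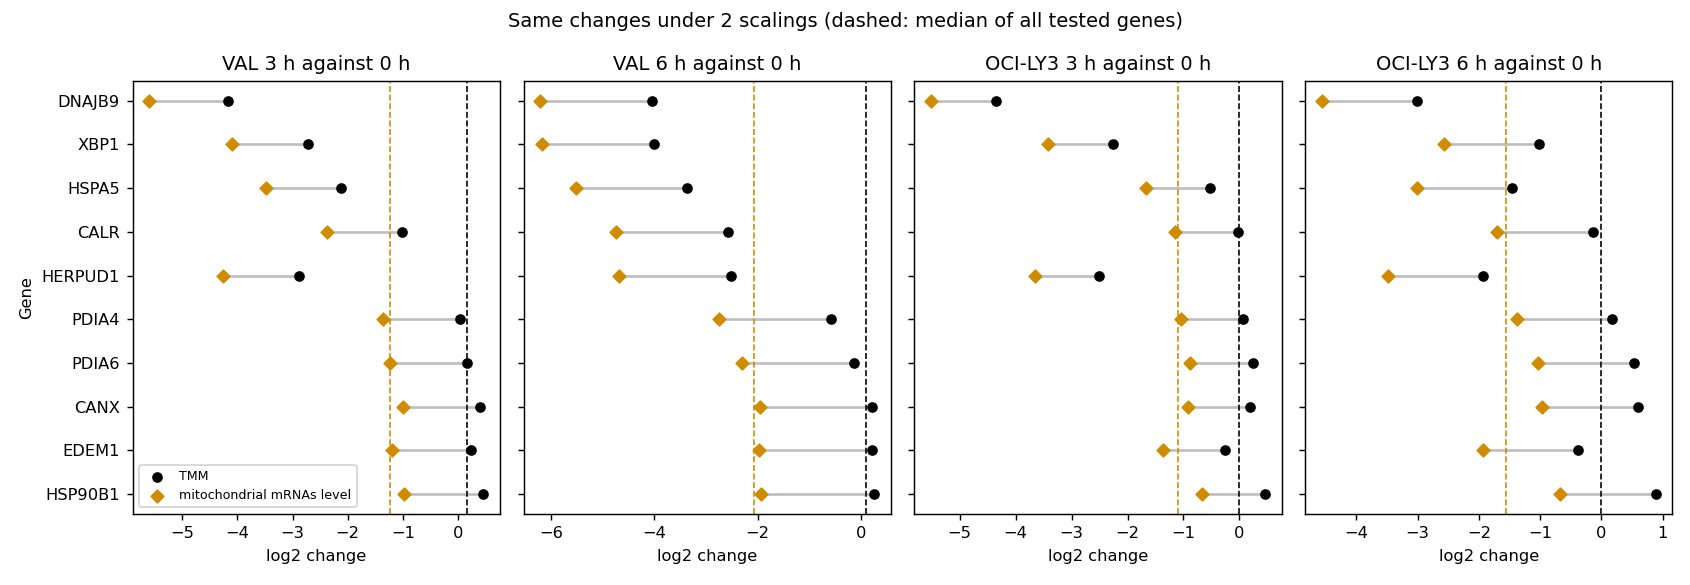
Change from untreated (log2) of the 10 genes in each comparison with 0 h under TMM scaling (black circles) and scaled to mitochondrially encoded mRNAs (orange diamonds), with dashed lines at the median of all tested genes. Every diamond lies left of 0, while HSP90B1 and CANX lie right of the orange line in all 4 panels, as at -0.98 and -1.01 against -1.23 in VAL at 3 h.

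The change with the inhibitor differed between the lines for 1 of the 10 genes at 3 h and for 7 at 6 h. At 3 h this was HSPA5, with a difference (OCI-LY3 minus VAL) of 1.59 ± 0.281 (adjusted p = 0.0127). Of all tested genes 2.73% were higher and 3.3% lower in that comparison. The call ended without the OCI-LY3 libraries numbered 1 at 0 h (0.0513) or at 3 h (0.0680). At 6 h 6 genes had a difference above 0 and 1 below it, against 12.3% and 14.4% of all tested genes. XBP1, CALR and HSPA5 differed most, by 2.99 ± 0.421, 2.44 ± 0.299 (0.000452) and 1.91 ± 0.283 (0.00111).

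PDIA4, PDIA6 and HSP90B1 differed by 0.76, 0.66 and 0.63 at 6 h. EDEM1 differed by -0.59 ± 0.193 (0.0427) and was the 1 gene below 0, with 0.046 under mitochondrial scaling. Its call ended without any one of 9 libraries (0.0537 to 0.227). CANX (0.38, adjusted p = 0.0665), DNAJB9 (1.04, 0.0553) and HERPUD1 (0.60, 0.191) did not pass. A p-value that misses the threshold does not show that the lines responded alike.

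Within the 10 genes the patterns over time fell into like and unlike pairs. Over the 12 libraries, with log2 CPM (offset 0.5) centred within each line, Pearson's r was 0.99 between DNAJB9 and HERPUD1, 0.945 between XBP1 and DNAJB9, and 0.949 between HSP90B1 and CANX. HSPA5 and CALR had 0.903, and HSPA5 and HSP90B1 had -0.629. The 12 points share their library scaling and the same treatment steps, so these values describe the pattern. Of all tested named protein-coding genes outside the 10, clone names left out, those most like HSPA5 were SPATA5L1 (0.996), YWHAH (0.995) and RPUSD1 (0.994). For HERPUD1 they were BUD13 (0.996), PIM3 (0.996) and NSMCE3 (0.995), and for XBP1 ZFP82 (0.986), C12orf65 (0.983) and UTP23 (0.982).

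The 6 genes with ERSE letters did not share a direction. At 6 h in VAL 3 of them were lower (HSPA5, CALR and XBP1), 1 was higher (HSP90B1) and 2 did not pass. Of all tested genes 32.2% were lower and 34% higher there. In OCI-LY3 at 6 h 2 were lower and 3 higher, against 33.4% and 28.1% of all tested genes. With mitochondrial scaling all 6 were lower in both lines, as were 13516 of all 16374 tested genes in VAL and 11775 in OCI-LY3. The 2 genes that fell in both lines without ERSE letters in their window were HERPUD1, whose window holds ERSE-II, and DNAJB9.

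Around the 10 genes, 99 further genes of the ER folding pathway were counted in 6 lists, of which 98 were tested. At 6 h 23 were higher and 40 lower in VAL, against 34% and 32.2% of all tested genes, and 34 were higher and 36 lower in OCI-LY3, against 28.1% and 33.4%. The same shares of all tested genes stand behind the counts of each list below, whose medians are read against 0.10 in VAL and -0.01 in OCI-LY3. Of 10 sensors and transcription factors of the unfolded protein response, 6 were lower and 2 higher in VAL at 6 h, with a median of -0.48. In OCI-LY3 9 were lower and 1 higher, with a median of -1.73. DDIT3, which encodes the stress transcription factor CHOP, fell by 4.42 ± 0.251 in VAL (adjusted p = 1.44e-07) and fell by 3.67 ± 0.276 in OCI-LY3 (1.04e-06). CREBZF, a partner of leucine zipper factors, changed by -2.26 in OCI-LY3.

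ATF6B, the paralogue of ATF6, went against the list, with 0.96 ± 0.0996 in VAL (8.39e-06) and 0.93 ± 0.1 in OCI-LY3 (1.36e-05) on the TMM scale. CREB3L2 was the other gene called higher in VAL, at 0.75 (0.0382). With mitochondrial scaling no gene of this list was called higher in either line, against 528 of all 16374 tested genes in VAL and 1008 in OCI-LY3. The 3 sensor genes were looked up after the values had been seen. EIF2AK3, which encodes PERK, changed by -0.71 in VAL (0.00156) and -1.69 in OCI-LY3 (4.41e-06). ERN1, which encodes IRE1, changed by -2.09 in OCI-LY3 (6.42e-05), and its 0.30 in VAL did not pass (0.42). ATF6 changed by -0.59 in OCI-LY3 (0.00759), and its -0.33 in VAL did not pass (0.0932).

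The list of ER-associated degradation had 11 of 20 genes lower and 4 higher at 6 h in VAL, against 32.2% and 34% of all tested genes. In OCI-LY3 12 were lower and 4 higher, against 33.4% and 28.1%, and the list medians were -0.65 and -0.49. ERLEC1, a lectin of that pathway, fell by 3.17 ± 0.198 in VAL (adjusted p = 2.54e-07) and fell by 1.41 ± 0.177 in OCI-LY3 (4.4e-05). DERL1, a channel protein of retrotranslocation, changed by -1.62 in VAL, and HERPUD2, the paralogue of HERPUD1, by -2.30 in OCI-LY3. The partners of BiP had 4 of 10 lower in each line and 1 higher in VAL and 2 in OCI-LY3. SDF2L1, a BiP cofactor, changed by -3.12 ± 0.317 in VAL (7.46e-06) and -1.48 ± 0.281 in OCI-LY3 (0.000818), and MANF, a BiP-binding secreted factor, by -2.65 and -1.02.

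Of 19 tested genes of N-glycan processing, 7 were higher and 4 lower in VAL at 6 h on the TMM scale, where 34% and 32.2% of all tested genes were. In OCI-LY3 12 were higher and 3 lower, against 28.1% and 33.4%. The medians were 0.17 and 0.53, although with mitochondrial scaling none was higher in either line. Under that scaling 528 of all 16374 tested genes were higher in VAL and 1008 in OCI-LY3. PRKCSH, the beta subunit of glucosidase II, was higher by 0.85 ± 0.106 in VAL (adjusted p = 3.47e-05) and 0.82 ± 0.105 in OCI-LY3 (5.36e-05). STT3B, a catalytic subunit of oligosaccharyltransferase, changed by -1.52 in VAL, and MOGS, glucosidase I, by -1.34 in OCI-LY3.

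Of 16 further disulfide enzymes, 4 were higher and 6 lower in VAL at 6 h, where 34% and 32.2% of all tested genes were, and 7 higher and 4 lower in OCI-LY3, against 28.1% and 33.4%. TMX1 and TMX3, membrane thioredoxin relatives, changed by -0.98 and 1.13 in VAL on the TMM scale, and TXNDC11 by -1.74 in OCI-LY3. With mitochondrial scaling all 16 were called lower at 6 h in both lines. So were 13516 of all 16374 tested genes in VAL and 11775 in OCI-LY3. Of 23 genes of the translocon and signal peptidase, 5 were higher and 9 lower in VAL and 8 higher and 4 lower in OCI-LY3, against the same shares. SEC62, which assists entry of chains into the ER, changed by -1.89 in VAL and -1.57 in OCI-LY3, and SRPRB, a subunit of the signal recognition particle receptor, by -2.97 in VAL. With mitochondrial scaling no gene of any list was called higher at 6 h in either line. Few of all 16374 tested genes were, 528 in VAL and 1008 in OCI-LY3. No test of any list as a set was run.

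**Figure D4:**
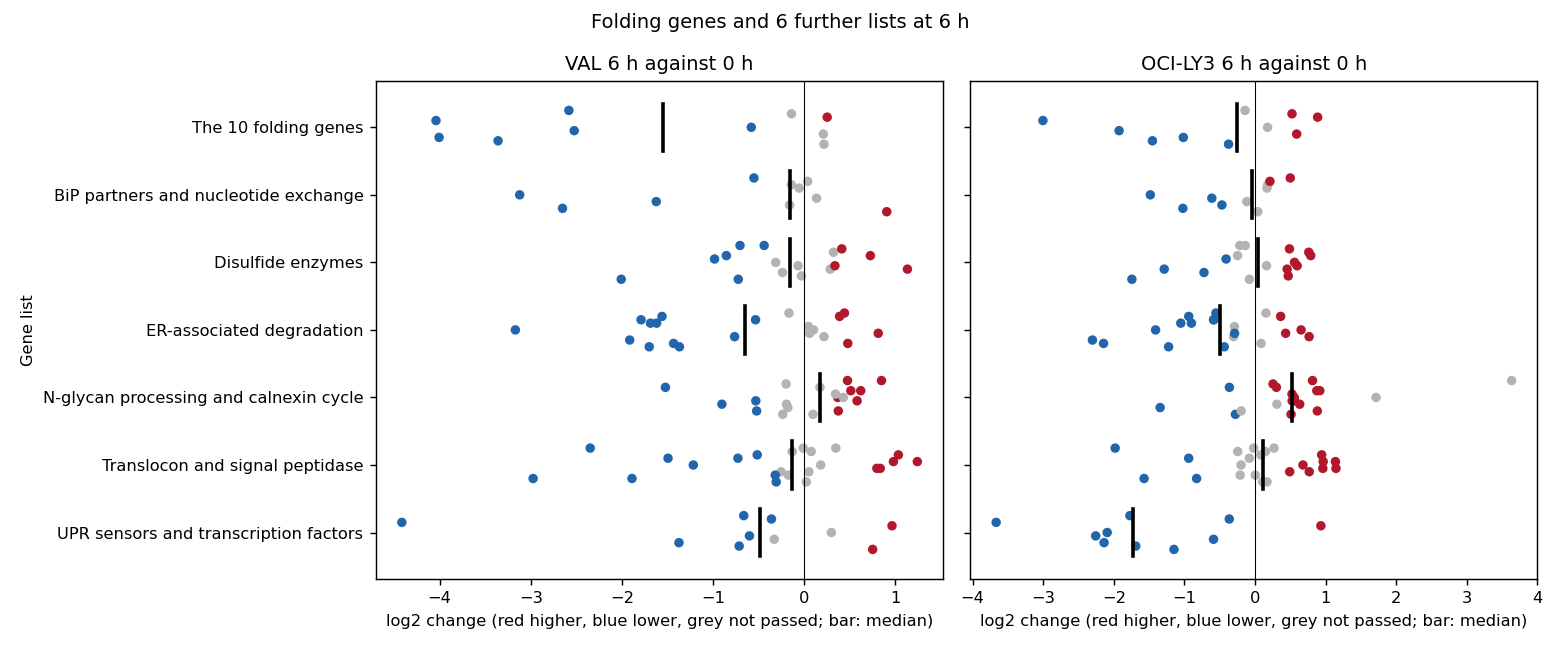
Change from untreated at 6 h (log2, TMM scaling) of the 10 folding genes and of 6 further lists in VAL (left) and OCI-LY3 (right), with 1 point per tested gene (red called higher, blue called lower, grey not passed) and a bar at each list's median. The sensor and transcription factor list sits at a median of -0.48 in VAL and -1.73 in OCI-LY3, and the N-glycan list at 0.17 and 0.53. Mitochondrial scaling leaves no N-glycan gene called higher, against 528 of all 16374 tested genes in VAL and 1008 in OCI-LY3.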

How the data were processed

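Poly(A)+ RNA of 12 libraries was sequenced as single reads from an unstranded kit, per the labels' protocols. The authors deposited a table of raw read counts with 58233 genes, and 35090 of them had at least 1 count. Their normalized values were not used here. Per the submitters' processing notes the build was GRCh38 and DESeq2 was used. How reads were aligned and counted is not given in the sources used here. Groups were taken from the labels. Counts were filtered with edgeR's filterByExpr, then TMM-scaled and modelled together over the 6 groups with edgeR's quasi-likelihood test, with 6 residual degrees of freedom, and adjusted by Benjamini-Hochberg over 16374 genes within each of 9 comparisons. The threshold was an adjusted p of 0.05, and all tests were two-sided. Standard errors come from the F statistic.

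Software was R 4.3.3, edgeR 4.0.16, limma 3.58.1 and DESeq2 1.42.0. The steps were tested on simulated counts with planted changes. Locations and exon lengths are from GENCODE release 29 and promoter windows from RefSeq (GRCh38.p14), a table that does not hold every gene. Levels between genes are compared as CPM per kb of exon.

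The 10 genes, the 6 further lists and the tests were chosen with earlier results of these data known. In each list up to 2 genes with the smallest adjusted p at 6 h in each line are named, with genes that passed against the list's majority, and other list genes are named as seen afterwards. Genes alike in pattern are the 3 highest by Pearson's r for each of HSPA5, XBP1 and HERPUD1. Replicate numbers were not used as a block, since libraries of the same number did not deviate together in all pairs of groups (r from -0.0651 to 0.683). No 2 columns were identical. Alternatives were DESeq2's size factors and Wald test, no composition factor, mitochondrial scaling, no filter on low counts, a replicate block, leaving out each library in turn, and leaving out the VAL libraries numbered 1 or those numbered 2. Reads carry no molecular identifiers, so counts overstate the number of independent molecules.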

Additional observations from a re-analysis of the deposited data

Results flagged for a closer look

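These results are singled out because the test of the difference between the lines in the change with AZ5576 passed (edgeR's quasi-likelihood test, Benjamini-Hochberg adjustment over all tested genes). The differences are OCI-LY3 minus VAL on the log2 scale. At 3 h this held for HSPA5 with 1.59, where VAL fell to 23.0% of untreated and OCI-LY3 stood at 69.3%. At 6 h it held for 7 genes. XBP1 differed by 2.99, with 6.31% of untreated left in VAL and 49.5% in OCI-LY3. CALR differed by 2.44, with 16.7% left in VAL and 90.7% in OCI-LY3. HSPA5 differed by 1.91, with 9.76% left in VAL and 36.5% in OCI-LY3. PDIA4, PDIA6 and HSP90B1 differed by 0.76, 0.66 and 0.63. EDEM1 differed by -0.59, with 116% of untreated in VAL and 77.2% in OCI-LY3. The mitochondrial share was 4.68% and 3.17% in VAL and 5.24% and 3.77% in OCI-LY3 at 3 h, and reached 6.90% in 1 VAL library and 5.38% in 1 OCI-LY3 library at 6 h, and line and lane cannot be told apart. The part of either in these differences was not tested.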

How the results depend on the processing

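The falls of DNAJB9, HERPUD1 and XBP1 at 3 h and 6 h in both lines, of HSPA5 and CALR in VAL and of HSPA5 at 6 h in OCI-LY3 kept their direction and passed under every alternative run. Scaled to mitochondrially encoded mRNAs, 0 of the 10 genes were higher and 10 lower in each comparison with 0 h. Of all 16374 tested genes 11611 and 13516 were lower in VAL and 10819 and 11775 in OCI-LY3, at 3 h and 6 h. In the other comparisons that scaling gave 8 lower from 3 h to 6 h in VAL, 1 higher from 3 h to 6 h in OCI-LY3, 1 higher in OCI-LY3 than in VAL at 0 h, and 0 with a difference below 0 at 6 h. Over all tested genes that scaling gave 7672, 973, 1957 and 396, in the same order. It reversed HSP90B1 (-0.98 and -1.93 in VAL, -0.67 and -0.67 in OCI-LY3, at 3 h and 6 h) and CANX (-1.01 and -1.96, -0.92 and -0.97). It also reversed EDEM1 in VAL (-1.19 and -1.98), PDIA4 at 3 h in VAL (-1.36) and in OCI-LY3 (-1.05 and -1.38), and PDIA6 at 3 h in VAL (-1.24) and in OCI-LY3 (-0.89 and -1.03). CANX from 3 h to 6 h in OCI-LY3 became -0.046, and the EDEM1 difference between lines at 6 h became 0.046.

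With no composition factor 0 genes were higher at 3 h or 6 h in VAL or at 3 h in OCI-LY3, 7 were lower from 3 h to 6 h in VAL, 2 higher from 3 h to 6 h in OCI-LY3, 2 had a difference above 0 at 3 h and 0 one below 0 at 6 h. Of all 16374 tested genes 2194 and 3151 were higher at 3 h and 6 h in VAL and 1786 at 3 h in OCI-LY3. From 3 h to 6 h 3395 were lower in VAL and 1433 higher in OCI-LY3. A difference above 0 at 3 h was called for 773 and 1 below 0 at 6 h for 1458. PDIA4 (-0.33) and PDIA6 (-0.21) at 3 h in VAL and HSP90B1 (-0.24) and CANX (-0.28) at 6 h in VAL were reversed. CALR at 6 h in OCI-LY3 passed as lower (-0.51). Without the filter on low counts 0 were higher at 3 h or 6 h in VAL, 2 had a difference above 0 at 3 h and 0 one below 0 at 6 h. Over the 35090 genes tested that way these counts were 3991 and 5614, 1197, and 2305. DESeq2's size factors and its Wald test both gave 2 higher at 6 h in VAL, 3 higher at 3 h in OCI-LY3 and 0 with a difference below 0 at 6 h, and the Wald test gave 2 above 0 at 3 h. Over all 16374 tested genes the size factors gave 5888, 3826 and 1947, in the same order. The Wald test gave 5582, 3796 and 2089, and 962 above 0 at 3 h. Under both of these DESeq2 settings PDIA4 passed as higher at 6 h in OCI-LY3 (0.35). The cause of these shifts was not tested.

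With the replicate block 1 gene was lower in OCI-LY3 than in VAL at 0 h and 2 had a difference above 0 at 3 h. Among all 16374 tested genes these counts were 4177 and 868. The block changed 8 of 90 calls of single genes, 7 of them to a pass. Libraries of the same number deviated together between 3 h and 6 h in VAL (r = 0.683) and in no other pair of groups within a line (r from -0.0651 to 0.0773), and no label says that a number marks a shared culture. Without the VAL libraries numbered 1, 2 genes were higher at 6 h in VAL, 1 higher from 3 h to 6 h in VAL, 3 higher and 5 lower at 3 h in OCI-LY3, and 2 had a difference above 0 at 3 h. Without those numbered 2, 2 were higher at 6 h in VAL, 6 lower from 3 h to 6 h in VAL, 3 higher and 5 lower at 3 h in OCI-LY3, and 4 had a difference above 0 and 1 below 0 at 3 h.

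Leaving out each library in turn gave 0 to 3 higher at 3 h in VAL, 0 to 1 higher and 6 to 7 lower at 6 h in VAL, and 0 to 1 higher and 3 to 5 lower from 3 h to 6 h in VAL. In OCI-LY3 it gave 1 to 2 higher and 3 to 4 lower at 3 h, 4 to 5 lower at 6 h, and 1 to 6 higher and 0 to 1 lower from 3 h to 6 h. Between lines it gave 4 to 7 higher at 0 h, 0 to 3 above 0 and 0 to 1 below 0 at 3 h, and 6 to 9 above 0 and 0 to 1 below 0 at 6 h. Where this left a group with 1 library, that library is assumed to vary like the others. Depth limits DNAJB9 and, in VAL, XBP1, whose treated libraries held 6 to 27 counts.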

Other observations

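Outside the 10 genes, 19 other genes had the ERSE letters in the 250 bases before a RefSeq start, and 11 of them were tested. They were named after their values had been seen. At 6 h on the TMM scale 1 was higher and 6 were lower in VAL, where 34% and 32.2% of all tested genes were. In OCI-LY3 3 were higher and 6 lower on that scale, against 28.1% and 33.4% (edgeR's quasi-likelihood test, adjusted over all tested genes). The list medians were -0.54 in VAL and -0.28 in OCI-LY3 (log2). FICD, which encodes the enzyme that adds AMP to BiP, changed by -1.77 in VAL and -1.49 in OCI-LY3. ALG12, a mannosyltransferase of N-glycan assembly, changed by -0.98 and -1.68. CRELD2, a secreted ER stress protein, changed by -0.55 in VAL and 0.50 in OCI-LY3 on the TMM scale. With mitochondrial scaling CRELD2 was called lower in both lines. NLRP4 fell furthest of those tested, by -3.76 in VAL and -2.07 in OCI-LY3, and SYNPO was the 1 gene higher in VAL on the TMM scale (1.27). The 4 that did not pass in VAL were ERO1B, SERP1, EIF2A and TMEM120A.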
